A study of Mus musculus with 4 samples.

Results

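The mitochondrial fatty acid oxidation genes Cpt1a, Cpt1b, Cpt2, Acadl, Acadm, Acadvl, Hadha, Hadhb and Acaa2 were examined in fat-associated nuclei of the mouse thymus and of epigonadal white fat. They were chosen by symbol, and all 9 were found among the 32285 genes of the RNA matrices. Although the set was named for mitochondrial and peroxisomal oxidation, every one of the 9 encodes a mitochondrial protein, so a separate list of 19 peroxisomal genes is set beside them. All animals were untreated wild-type C57/BL6 mice on standard chow. RNA of single nuclei (10x droplets) came from 2 libraries of 4-month males, 1 of 6 pooled thymi and 1 of epigonadal white fat. How many animals gave the fat is not stated in the labels. Chromatin accessibility was measured in 1 multiome library (RNA and open chromatin from the same nuclei) of 16 pooled thymi of 6-month females, and its RNA was not analysed here. Thymic capsules were cleaned of attached fat, the tissue was digested with DNase I and collagenase II, and nuclei came from the floating layer, per the labels' protocols. Every group was 1 library of pooled or unstated animals, so no difference between groups has a replicate check and no p-value is given. All intervals are 95% intervals that cover counting error only.

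Fatty acids are activated to acyl-CoA and enter the mitochondrial matrix as carnitine esters. Carnitine palmitoyltransferase of the outer membrane (Cpt1a, the liver form, and Cpt1b, the muscle form) makes the ester, and Cpt2 on the inner membrane turns it back into acyl-CoA. A turn of the oxidation spiral then starts with an acyl-CoA dehydrogenase, such as those for very long (Acadvl), long (Acadl) or medium (Acadm) chains. Long chains go on through the trifunctional protein of Hadha and Hadhb, while turns on shorter chains end with a thiolase such as Acaa2. Brown fat is known for high rates of this pathway and for Cpt1b, whereas white fat stores more fat than it burns.

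Hadha and Hadhb, which encode the subunits of 1 protein, are transcribed in opposite directions from a shared stretch of chromosome 5. Their RefSeq starts on GRCm38.p6 have 272 bases between them. That stretch is shown because fragments of open chromatin over it belong to both genes. It is printed on the plus strand, which is the strand of Hadhb, with matches to the GC box letters GGGCGG in capitals. The bases before the starts of Acadm, the member with the most fragments per kb, and of Acadl are shown on the strand of the gene, up to the start. Capitals mark the GC box read on the opposite strand in Acadl, and in Acadm the nuclear receptor half-site AGGTCA read on the opposite strand.

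Hadha to Hadhb, chr5:30154981-30155252, plus strand: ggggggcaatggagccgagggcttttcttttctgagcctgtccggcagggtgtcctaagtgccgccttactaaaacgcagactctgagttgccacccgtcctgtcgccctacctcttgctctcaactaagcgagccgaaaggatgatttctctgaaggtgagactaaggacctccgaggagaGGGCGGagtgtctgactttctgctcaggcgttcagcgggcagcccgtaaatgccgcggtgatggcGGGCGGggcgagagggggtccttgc

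Acadm, chr3:153944644-153944893, minus strand: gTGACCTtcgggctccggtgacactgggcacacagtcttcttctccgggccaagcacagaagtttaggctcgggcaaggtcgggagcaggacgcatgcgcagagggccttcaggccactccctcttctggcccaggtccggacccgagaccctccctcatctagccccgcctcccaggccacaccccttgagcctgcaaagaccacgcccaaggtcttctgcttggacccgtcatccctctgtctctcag

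Acadl, chr1:66863310-66863559, minus strand: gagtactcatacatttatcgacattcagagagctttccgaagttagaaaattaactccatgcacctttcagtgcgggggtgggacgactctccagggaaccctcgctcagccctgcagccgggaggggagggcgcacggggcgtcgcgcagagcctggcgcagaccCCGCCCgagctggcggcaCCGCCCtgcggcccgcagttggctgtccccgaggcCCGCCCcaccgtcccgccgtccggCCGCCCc

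Motifs were searched on both strands from 250 bases before to 50 bases after each start, for the 7 members with an entry among 32851 RefSeq promoters. A GC box (GGGCGG) lay in 5 of the 7, those of Cpt1a, Cpt2, Acadl, Hadha and Hadhb, against 35.7% of all promoters. Acadl held 4 of them, and GC made up 70.3% of its promoter against a median of 52.7% over all promoters. The stretch between Hadha and Hadhb had a GC content of 60.3%, and its GC boxes began at bases 183 and 248. The box of Hadha is the same match as the Hadhb box at base 183, so this pair is not independent in the count. The RefSeq start of Cpt1a, at base 3323301 of chromosome 19, lies inside the gene body as annotated in the files, which begins at base 3322326, so its promoter values refer to that later start. The half-site AGGTCA was found in Cpt1a, Acadm and Acadvl, or 3 of 7, against 16.3% of all promoters. In Acadm it began 249 bases before the start. The DR1 element (a half-site repeated after 1 base) was in 0 of 7 and 0.0396% of all promoters, and the estrogen-related receptor element TCAAGGTCA was in 0 of 7 and 0.423%. Both of these contain the half-site letters, so the motifs overlap. TATAAA was in 0 of 7 against 13.6%, CACGTG in 0 of 7 against 7.15%, and CCAAT in Cpt1a alone against 37.4%. These are matches of letters and not binding sites.

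Of 22600 thymic barcodes, with 10054839 UMIs (unique molecular identifiers, each counting 1 captured RNA molecule), the authors gave 365 a label. Of 5043 epigonadal barcodes, with 6504841 UMIs, they labelled 1564. There were 5 labels. Ad Ia and Ad Ib are joined below as Ad I, and the others were Ad IIa, Ad IIb and Ad IIc. Levels are CPM, the UMIs of a gene per 1000000 UMIs of nuclear-encoded genes in the same sum of nuclei. Adipocyte markers were present under every label, and endothelial markers were found under every label too, at unequal levels. Thymic Ad Ia had 2 endothelial UMIs (72.3 CPM, 2 of 8 markers detected) and thymic Ad Ib 63 (2563 CPM, 8 of 8), so the joined label holds both. Ad IIa had 11578 CPM of adipocyte and 8731 CPM of endothelial markers in the thymic library, and 22731 and 6484 CPM in the epigonadal library. A shared label therefore need not be 1 kind of cell, and labels came from the same nuclei whose RNA is described. The libraries shared 147 barcode sequences, of which 0 were labelled in both.

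In nuclei labelled Ad I, the members together were higher in the thymic than in the epigonadal library. Their summed level was 1818 CPM (1471 to 2223; 95 UMIs in 84 nuclei) against 610.2 CPM (519.6 to 712.1; 161 UMIs in 258 nuclei), a log2 ratio of 1.58 (1.19 to 1.95). Of the 7 members with at least 10 UMIs over both sides, 5 were at least 2-fold higher and 1 was at least 2-fold lower, where 15.2% of the 5346 genes with that minimum were higher and 17.0% lower. The median over the 7 was 1.41, also with Cpt1b at its bound, beside 0.08 over all genes. The minimum is on the sum of both sides, so a member can pass it through 1 side alone. Cpt1b (13 and 0 UMIs), Cpt2 (1 and 15) and Acadvl did so here, and such counts and medians are descriptions. The 4 members with at least 10 UMIs in each library, Acadl, Acadm, Hadha and Hadhb, had ratios from 1.28 to 1.92. Few of these nuclei were deep. Among the 9 thymic and 79 epigonadal Ad I nuclei with at least 1000 UMIs, the summed members had 769.8 CPM (15 UMIs) and 444 CPM (67 UMIs), a log2 ratio of 0.83 whose interval (−0.12 to 1.62) included 0. Median depth in Ad I was 500.5 UMIs for thymic and 744.5 UMIs for epigonadal nuclei, and mitochondrially encoded UMIs made up 14.7% and 5.58%. The part of these differences in the ratio was not tested.

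Among the carnitine palmitoyltransferases, Cpt1b was higher in thymic Ad I and the others could not be placed at this depth. Cpt1b (ENSMUSG00000078937, chromosome 15, 89416405 to 89425862 on GRCm38) had 13 UMIs in thymic Ad I, or 249 CPM (132.5 to 425.5), and 0 UMIs in epigonadal Ad I, where the limit of 3 counts is 11.4 CPM. The thymic level was thus at least 21.9-fold higher with the thymic count as measured, or 11.6-fold from the low end of its interval. The 13 UMIs lay in 13 different nuclei, 15.5% of the 84 (8.51 to 25.0, Clopper-Pearson interval), and 0 of 258 epigonadal nuclei held one, which allows a share of up to 1.16% by the limit of 3 counts and 1.42% by the Clopper-Pearson interval. In thymic barcodes with T cell markers and no label, a cell type known for the liver form Cpt1a, 0.931% of 1181 held a Cpt1b UMI, at a median of 915 UMIs. After thinning each nucleus to 500 UMIs, which left 42 of the 84 thymic and all 258 epigonadal nuclei, 4 of 42 (9.52%) and 0 of 258 held one. The 9 thymic and 79 epigonadal Ad I nuclei with at least 1000 UMIs held 0 Cpt1b UMIs in either library, so all 13 came from shallower nuclei. Both Ad I labels contributed, with 3 UMIs in Ad Ia (108.5 CPM) and 10 in Ad Ib (407 CPM), which differed by a log2 of 1.76 (−0.05 to 4.41). Chkb, whose gene body reaches to within 2 kb of Cpt1b, had 1 UMI in thymic and 4 in epigonadal Ad I.

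Cpt1a (ENSMUSG00000024900, chromosome 19, 3322326 to 3385735) had 0 UMIs in thymic Ad I, a limit of 57.4 CPM, and 3 UMIs (11.4 CPM) in epigonadal Ad I, so no fold is given. Cpt2 (ENSMUSG00000028607, chromosome 4, 107903982 to 107923589) had 1 UMI (19.1 CPM) against 15 (56.9 CPM). Its log2 ratio of −1.03 had an interval from −6.97 to 1.13, so a difference was not detectable at this depth. The outer-membrane muscle form was therefore the 1 member of the shuttle with an interval clear of 0 in these nuclei.

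The dehydrogenases of long and medium chains were higher in thymic Ad I. Acadm (ENSMUSG00000062908, chromosome 3, 153922353 to 153944643) had 26 UMIs, or 498 CPM (325.1 to 729.2), against 35 UMIs and 133 CPM (92.4 to 184.5), a log2 ratio of 1.92 (1.12 to 2.68). Acadl (ENSMUSG00000026003, chromosome 1, 66830839 to 66863309) had 364 CPM (19 UMIs) against 102 CPM (27 UMIs), a log2 ratio of 1.84 (0.90 to 2.73). Acadvl (ENSMUSG00000018574, chromosome 11, 70010183 to 70015428), for very long chains, had 3 and 11 UMIs and a log2 ratio of 0.62 (−2.02 to 2.38), which spans no difference. Both subunits of the trifunctional protein were higher. Hadha (ENSMUSG00000025745, chromosome 5, 30119423 to 30154980) had 268 against 102 CPM (14 and 27 UMIs), a log2 ratio of 1.41 (0.34 to 2.37). Among nuclei with at least 1000 UMIs Hadha had 0 thymic UMIs, a limit of 154 CPM, and 12 epigonadal UMIs (79.6 CPM), so no direction can be read there. Hadhb (ENSMUSG00000059447, chromosome 5, 30155253 to 30184593) had 325 against 136 CPM (17 and 36 UMIs), a log2 ratio of 1.28 (0.33 to 2.12). The thiolase Acaa2 (ENSMUSG00000036880, chromosome 18, 74779212 to 74806207) had 2 and 7 UMIs and a log2 ratio of 0.75 (−2.77 to 2.92).

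**Figure D1:**
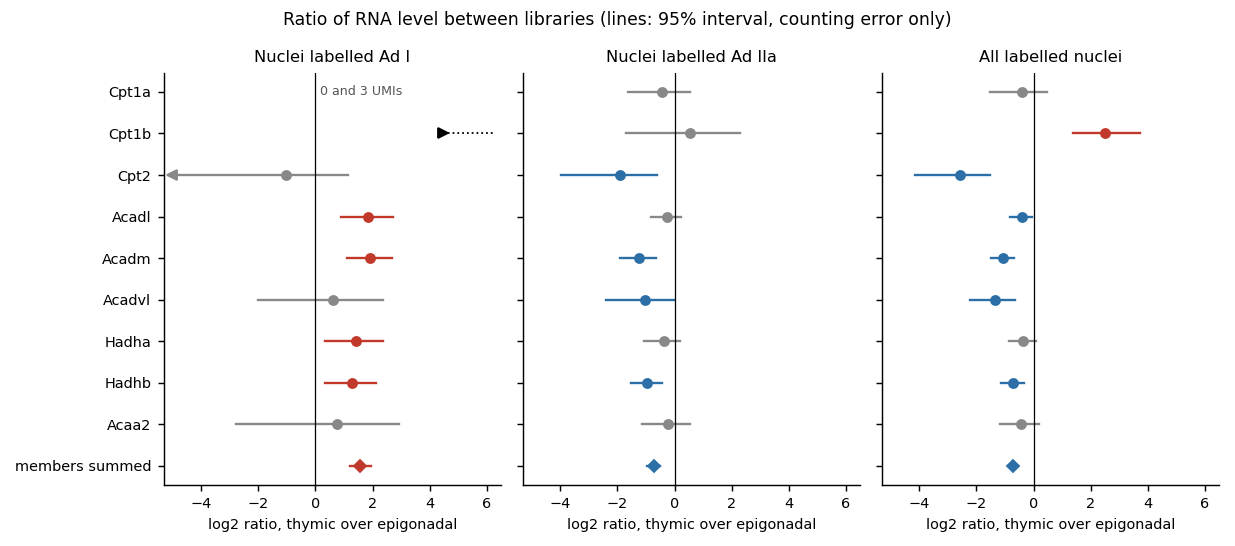
Log2 ratio of each member's level, thymic over epigonadal, in nuclei labelled Ad I, in nuclei labelled Ad IIa and in all labelled nuclei. Points are ratios and lines 95% intervals of counting error; red and blue mark intervals above and below 0, diamonds are the 9 genes summed, and the arrowhead for Cpt1b in Ad I is its lower bound. The sum lies at 1.58 in Ad I, at −0.73 in Ad IIa and at −0.72 over all labels.

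Scaling moved the whole Ad I comparison. The median of all genes was 0.08 with the main scaling, −0.26 with TMM factors and −0.26 with median-of-ratios factors, and the members' ratios moved with it. Other cell markers differed too. T cell markers had 479 CPM (7 of 12 detected) in thymic and 75.8 CPM (5 of 12) in epigonadal Ad I, with Cd3e, Cd3d, Cd4 and Rag2 at 0 in both. Brown fat markers had 593 CPM (5 of 6, Elovl3 at 0) against 30.3 CPM (3 of 6, with Ucp1, Elovl3 and Dio2 at 0). The part of either in the members' ratios was not tested. Striated muscle, another tissue known for Cpt1b, had 0 of 10 markers in thymic Ad I and 4 of 10 (53.1 CPM) in epigonadal Ad I. The thymic interval reaches 70.6 CPM, so no direction can be read. Adipocyte markers were detected 9 of 9 in both, at 8652 and 14796 CPM. Markers of macrophages had 95.7 CPM (3 of 7 detected, Adgre1 and Cd163 at 0) in thymic and 538 CPM (7 of 7) in epigonadal Ad I. Those of fibroblasts had 172 CPM (3 of 7, Pdgfra and Dcn at 0) and 568.5 CPM (7 of 7), and those of B cells 134 CPM (4 of 6, with Cd79a at 0) and 432 CPM (6 of 6). The part of these lower thymic levels in the members' ratios was not tested either.

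Within thymic Ad I, the members were spread thinly over nuclei. At least 1 member had a UMI in 60 of 84 nuclei, 3 or more members in 6, and no nucleus held more than 4. Ppara, which encodes a nuclear receptor known to bind fatty acids and to act on many of these genes, had a UMI in 45 nuclei, and 8 of the 13 nuclei with Cpt1b were among them. Ucp1, the uncoupling protein of brown fat, had a UMI in 4 nuclei, of which 2 also held Cpt1b. Ppara was higher in thymic than in epigonadal Ad I by a log2 of 2.60 (2.14 to 3.07; 89 and 74 UMIs). The coactivator Ppargc1b was higher by 2.86 (2.25 to 3.51; 55 and 38 UMIs) and the estrogen-related receptor Esrrg by 3.36 (2.42 to 4.42; 29 and 14 UMIs). Ppargc1a, the other coactivator of this pair, had 2 and 4 UMIs.

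In nuclei labelled Ad IIa, the largest thymic label with 231 nuclei, the members lay lower in the thymic library. Their summed level was 428 CPM (172 UMIs) against 713 CPM (882 UMIs in 590 nuclei), a log2 ratio of −0.73 (−0.98 to −0.50). Of 9 members with at least 10 UMIs, 0 were at least 2-fold higher and 3 at least 2-fold lower, where 5.44% of 9775 genes were higher and 16.2% lower. The median was −0.43 beside −0.02 over all genes. Of the 6 members with at least 10 UMIs in each library, 1 was at least 2-fold lower and the median was −0.41. No share of all genes was computed at that minimum, and 1 of 6 lies near the 16.2% above. Cpt2 was lowest, with 4 UMIs (9.96 CPM) against 51 (41.2 CPM) and a log2 ratio of −1.89 (−3.98 to −0.61). Acadm had 62.3 against 149 CPM, a log2 ratio of −1.23 (−1.92 to −0.65), and Acadvl had a ratio of −1.03 (−2.39 to −0.02). Hadhb was lower by less than 2-fold, at 87.2 against 171 CPM (−0.96, interval −1.54 to −0.45). The intervals of Cpt1a, Cpt1b, Acadl, Hadha and Acaa2 all included 0. Cpt1b had 4 and 9 UMIs here, against 13 and 0 in Ad I. Beside the adipocyte and endothelial markers given above, markers of fibroblasts had 4.98 CPM (2 of 7 detected, Col1a1 and Lum at 0) in thymic and 221.5 CPM (7 of 7) in epigonadal Ad IIa, and those of macrophages 4.98 CPM (2 of 7, Mrc1 and Csf1r at 0) and 71.1 CPM (7 of 7). T cell markers had 279 CPM (12 of 12) and 134 CPM (2 of 12, Cd3e and Cd4 at 0), and erythroid markers 521 and 133 CPM (5 of 6 in both, Slc4a1 at 0). Mitochondrially encoded UMIs made up 12.8% and 4.91%. The part of these in the members' ratios was not tested.

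Ad IIb was small, with 16 thymic and 58 epigonadal nuclei. The summed members had 518 CPM (14 UMIs) and 448 CPM (63 UMIs), a log2 ratio of 0.25 (−0.74 to 1.06), so a difference was not detectable at this depth. In Ad IIc the summed members had 571 CPM (31 UMIs in 34 nuclei) against 1877 CPM (1761 to 1999; 969 UMIs in 658 nuclei), a log2 ratio of −1.69 (−2.28 to −1.20). The background was wide, since 32.7% of 6481 genes with at least 10 UMIs were at least 2-fold higher and 32.0% lower. No count of members is given, because those that reached this minimum did so through the epigonadal nuclei. Cpt2 had 0 thymic and 87 epigonadal UMIs (168.5 CPM) and was at least 3.05-fold lower with the epigonadal count as measured, or 2.44-fold from the low end of its interval. Acadm had 129 against 525 CPM (7 and 271 UMIs), a log2 ratio of −1.93 (−3.35 to −0.96). Acadl (−1.61, interval −3.18 to −0.57) and Hadhb (−1.40, interval −2.98 to −0.36) were lower as well, and the intervals of Acadvl, Hadha and Acaa2 included 0. Cell type markers differed between the libraries in this label. Endothelial markers had 7814 CPM in thymic and 409 CPM in epigonadal Ad IIc, erythroid markers 25948 and 393 CPM, and adipocyte markers 18631 and 63738 CPM, with Plin1 and Plin4 at 0 in the thymic nuclei.

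Over all labelled nuclei the sum was lower in the thymic library, at 583 CPM (520.3 to 651.6) against 962 CPM (920.7 to 1004), a log2 ratio of −0.72 (−0.90 to −0.55). All 9 members passed the minimum of 10 UMIs. Of these, 1 was at least 2-fold higher, where 8.12% of 11306 genes were, and 3 were at least 2-fold lower, where 20.2% were. The median was −0.45 beside 0.03 over all genes. Of the 8 members with at least 10 UMIs in each library, all but Cpt2, 1 was higher and 2 lower. No share of all genes was computed at that minimum, and these counts lie near the shares of all genes above. Cpt1b was the higher one, with 17 UMIs (31.8 CPM) against 12 (5.56 CPM) and a log2 ratio of 2.50 (1.36 to 3.71). Among labelled nuclei with at least 1000 UMIs that ratio was 0.30. Cpt2 was lowest at −2.57 (−4.15 to −1.52; 6 and 155 UMIs), followed by Acadvl at −1.34 (−2.22 to −0.64) and Acadm at −1.07 (−1.49 to −0.69). The ratios of Hadhb (−0.72, interval −1.13 to −0.34) and Acadl (−0.42, interval −0.82 to −0.06) had intervals below 0, and those of Cpt1a, Hadha and Acaa2 included it. The libraries had unlike mixes of labels. At the epigonadal mix of labels the thymic sum was 637 CPM and the log2 ratio −0.59. Adipocyte markers had 11799 CPM in thymic and 30838 CPM in epigonadal labelled nuclei (9 of 9 detected in both), endothelial markers 7937 and 4508 CPM (8 of 8 in both) and erythroid markers 3082 and 249 CPM (5 of 6 in both, Slc4a1 at 0). Fibroblast markers had 22.4 (5 of 7) and 343 CPM (7 of 7) and macrophage markers 13.1 (5 of 7) and 139 CPM (7 of 7). T cell markers had 299 (12 of 12) and 90.8 CPM (7 of 12) and brown fat markers 189 (6 of 6) and 57.9 CPM (4 of 6). Mitochondrially encoded UMIs made up 13.2% and 5.22%. The part of these differences in the members' ratios was not tested.

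The order of labels differed between the libraries. In the thymic library the summed members were highest in Ad Ib (2197 CPM), then Ad Ia (1482), Ad IIc (571), Ad IIb (518) and Ad IIa (428), and among neighbours in that order only the intervals of Ad Ia and Ad IIc stood apart. In the epigonadal library Ad IIc was highest (1877 CPM), then Ad Ib (723.5), Ad IIa (713), Ad Ia (515) and Ad IIb (448), with Ad IIc apart from Ad Ib and Ad IIa apart from Ad Ia. Epigonadal Ad IIc had the highest level of 7 members, all but Cpt1a and Cpt1b, and its interval lay above that of the next label for each of the 7 except Hadha. No share of all genes was computed for these counts, which are descriptions. Adipocyte markers were also highest in that label, at 63738 CPM, and their part in the order was not tested. Cpt1a was highest in epigonadal Ad IIb (56.8 CPM from 8 UMIs), where no neighbouring labels were apart. In the thymic library its labels cannot be ordered, since Ad Ia, Ad Ib and Ad IIc had 0 UMIs with limits of 108.5, 122.0 and 55.3 CPM.

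**Figure D2:**
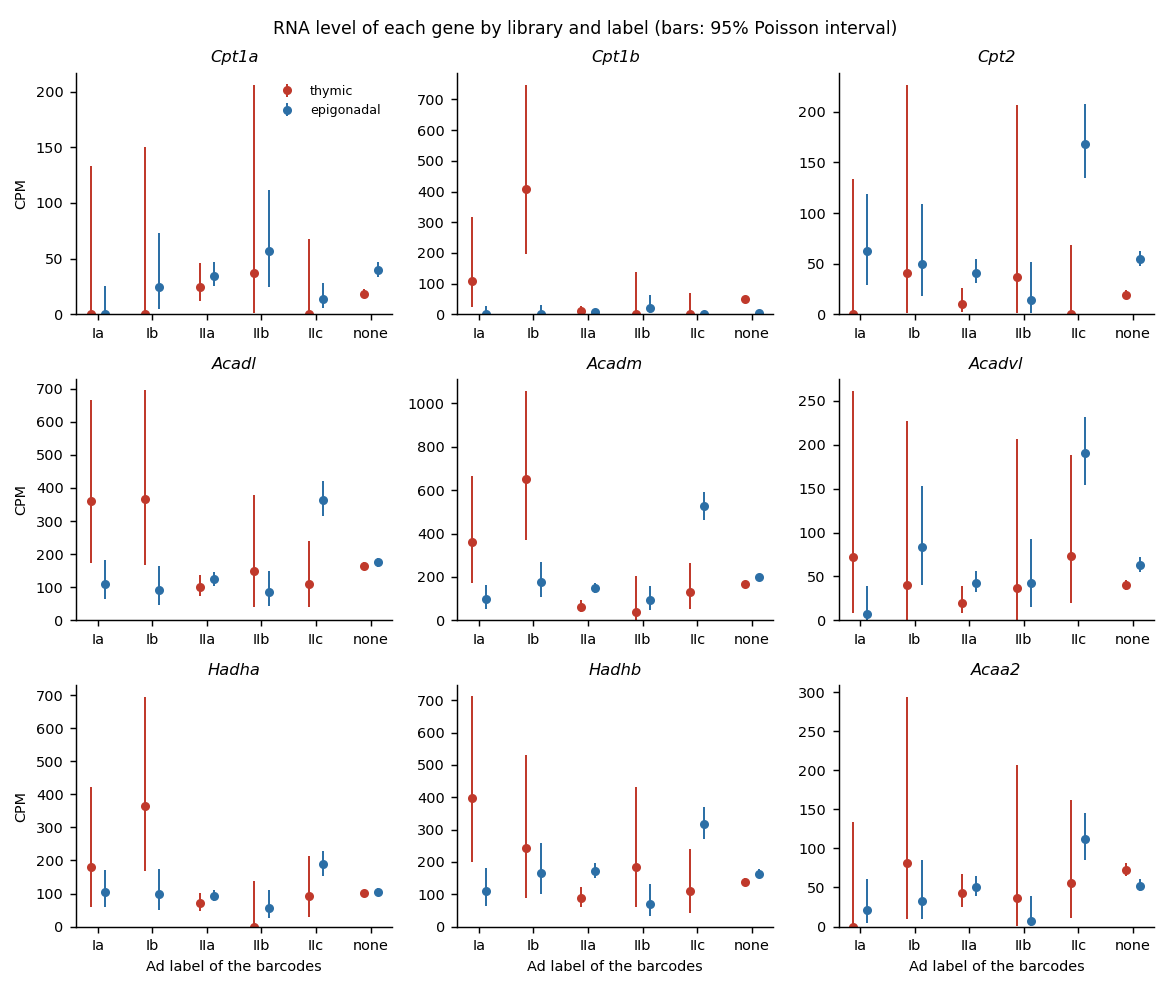
Level of each of the 9 genes in CPM (linear axes that differ between panels) by the Ad label of the barcodes, with "none" for barcodes without a label; red is the thymic and blue the epigonadal library, and bars are 95% Poisson intervals. Acadm reaches 651 CPM in thymic Ad Ib and 525 CPM in epigonadal Ad IIc, and Cpt1b is high in thymic Ad I and at 0 in epigonadal Ad I.

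Within the thymic library, Ad I exceeded Ad IIa by a log2 of 2.09 (1.71 to 2.46) in the summed members. Of 8 members with at least 10 UMIs, 6 were at least 2-fold higher in Ad I and 1, Cpt1a, counted as lower, where 20.2% of 6095 genes were higher and 28.2% lower. The median over the 8 was 1.89, also with Cpt1a at its limit, beside −0.08 over all genes. Acadl, Acadm, Hadha and Hadhb, the 4 with at least 10 UMIs in each label, had ratios from 1.85 to 2.997. Cpt1b had 249 against 9.96 CPM, a log2 of 4.53 (2.95 to 6.72), and Acadm 498 against 62.3 CPM, a log2 of 2.997 (2.15 to 3.85). Hadha (1.97), Hadhb (1.92) and Acadl (1.85) were higher as well, each with an interval above 0. Cpt1a counted as lower only through the 0.5 counts added to each side: it had 0 UMIs in Ad I and 10 in Ad IIa (24.9 CPM), below the limit of 57.4 CPM that 0 counts allow in Ad I, so no fold is given. In the epigonadal library the same contrast gave −0.22 (−0.48 to 0.02) for the sum and a median of −0.20. Endothelial markers had 1244 CPM in thymic Ad I and 8731 in thymic Ad IIa, and 1038 and 6484 CPM in the epigonadal library. The median depth was 500.5 UMIs in thymic Ad I and 1696 in thymic Ad IIa, and 744.5 and 1916 in the epigonadal library. The part of either in these values was not tested.

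Most thymic UMIs of the members lay in barcodes without a label, where mitochondrially encoded UMIs made up 51.2% (thymic) and 10.7% (epigonadal). There the sum was 773 CPM (3559 UMIs) against 858 CPM (3243 UMIs), a log2 ratio of −0.15 (−0.22 to −0.08). The counts were large enough to separate the shuttle genes. Cpt1b had 230 UMIs (49.97 CPM; 43.7 to 56.9) against 15 (3.97 CPM; 2.22 to 6.55), a log2 ratio of 3.61 (2.90 to 4.51). Its neighbour Chkb had 17.2 and 13.5 CPM there. Cpt2 had 89 UMIs (19.3 CPM) against 206 (54.5 CPM), a log2 ratio of −1.49 (−1.87 to −1.13), and Cpt1a 18.03 against 39.97 CPM, a log2 ratio of −1.14 (−1.55 to −0.75). Cpt1b was thus higher and Cpt1a and Cpt2 lower in the thymic barcodes. Acaa2 was higher by 0.47 (0.21 to 0.73). Acadvl, Acadm and Hadhb were lower in the thymic barcodes, with Poisson intervals apart. Of the 9 members 7 lay below 0, as did 8242 of 14979 genes, and the median was −0.24 beside −0.125 over all genes. Cell type markers differed between these barcodes. Adipocyte markers had 4789 CPM in thymic and 25107 CPM in epigonadal barcodes, T cell markers 4580 and 330.1 CPM, macrophage markers 231 and 815 CPM, fibroblast markers 319 and 1345 CPM and brown fat markers 406 and 63.0 CPM, with every marker of these 5 lists detected in both. Their part in the members' ratios was not tested.

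These barcodes were sorted by markers: a barcode belonged to a class when at least 3 markers of the class, and more than of any other class, were detected. With adipocyte markers there were 510 thymic barcodes (median 448 UMIs) and 2229 epigonadal ones (median 750). Their summed members had 1537 CPM (1367 to 1723) and 1149 CPM (1104 to 1195), above every other class of at least 50 barcodes in the same library. Cpt1b had 146 CPM (96.9 to 210.8; 28 UMIs) in the thymic and 5.50 CPM (2.84 to 9.60; 12 UMIs) in the epigonadal adipocyte class. Cpt2, in contrast, had 67.7 and 78.8 CPM, with overlapping intervals (36.1 to 115.8 and 67.4 to 91.5). Acadl had 369.9 and 244 CPM, Hadha 219 and 131 CPM, with intervals apart, while Acadm had 302 and 286 CPM with intervals that overlapped. The intervals of Cpt1a, Acadvl, Hadhb and Acaa2 overlapped as well. No share of all genes was computed for the adipocyte classes. Ucp1 had 172 and 0.916 CPM in the adipocyte classes. It was not confined to that class in the thymic library, with 84.5 CPM in the endothelial class and 116 CPM in barcodes without a class.

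Outside the adipocyte class the members were lower. The thymic T cell class (1181 barcodes) had 318.2 CPM in sum, 11.8 CPM of Cpt1b (6.11 to 20.7) and 2.96 CPM of Cpt2. The endothelial classes, with 254 thymic and 63 epigonadal barcodes, had nearly the same sums, 540.0 CPM (456.3 to 634.7) and 553 CPM (446.7 to 677.9). Cpt1a reached 95.3 CPM (59.0 to 145.7) in the epigonadal macrophage class and 60.8 CPM (32.4 to 104.0) in the epigonadal fibroblast class, against 27.0 CPM (20.6 to 34.9) in the epigonadal adipocyte class, whose interval overlapped that of the fibroblast class and lay below that of the macrophage class. In the thymic library it had 51.4 CPM (28.1 to 86.3) in the endothelial and 10.4 CPM (1.26 to 37.6; 2 UMIs) in the adipocyte class, and these intervals overlap. The 19956 thymic barcodes without a class, at a median of 297 UMIs, had 935 CPM in sum and 63.6 CPM of Cpt1b.

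**Figure D3:**
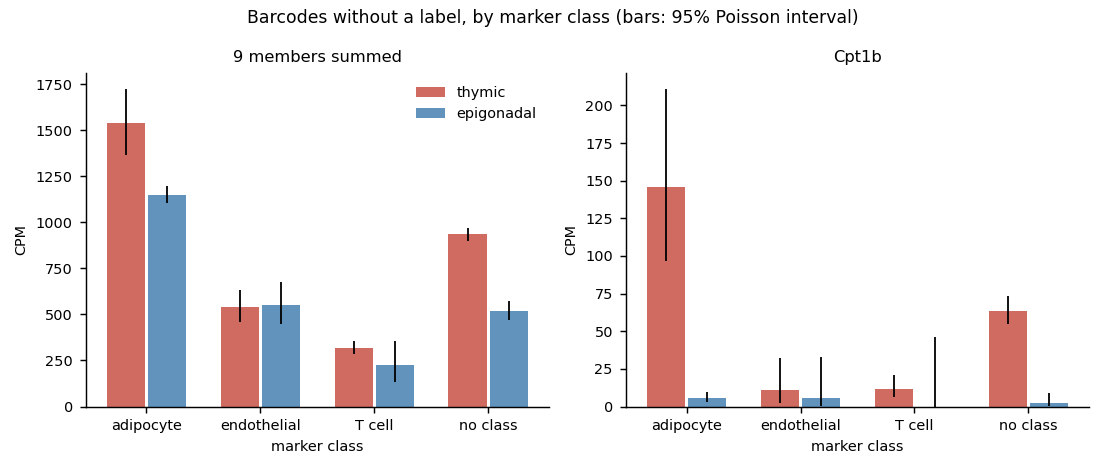
Level in CPM (bars start at 0) of the 9 genes summed and of Cpt1b in barcodes without a label, by marker class, in the thymic (red) and epigonadal (blue) library; black lines are 95% Poisson intervals. The adipocyte class is highest in both panels for the thymic library, at 1537 CPM for the sum and 146 CPM for Cpt1b. Cpt1b had 0 UMIs in the epigonadal T cell class, a limit of 37.5 CPM, and 1 UMI in the epigonadal endothelial class.

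Thymic barcodes without a label were also split by Ucp1, a split chosen after seeing the data. The 386 barcodes with a Ucp1 UMI (median 379.5 UMIs) had 143 CPM of Cpt1b (85.9 to 222.8), and the 21849 without one (median 307) had 47.2 CPM (41.1 to 54.0). The summed members had 1359 and 756 CPM. Of the 9 members 5 had intervals apart and higher with Ucp1 and 0 lower, where 5.50% of the 13110 genes with at least 10 UMIs in both groups together were higher and 2.58% lower. Beside Cpt1b these were Acadvl (97.6 and 38.3 CPM), Hadhb (263 and 135 CPM), Acadm (323 and 163 CPM) and Acadl (270.3 and 162 CPM). The intervals of Cpt1a, Cpt2, Hadha (120.1 and 100.7 CPM) and Acaa2 (67.6 and 72.7 CPM) overlapped. Whether intervals stand apart depends on counts, and the 13110 genes include ones with as few as 10 UMIs. The 5 of 9 and the 5.50% are therefore not like for like, and both are descriptions. The barcodes with Ucp1 also had more adipocyte markers (9723 against 4642 CPM, 9 of 9 detected in both) and endothelial markers (2921 against 961 CPM, 8 of 8 in both) and fewer T cell markers (2267 CPM, 11 of 12, against 4649 CPM, 12 of 12). Mitochondrially encoded UMIs made up 42.01% and 51.5%. The part of these in the members' levels was not tested.

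The other genes of the pathway were taken from lists of shuttle, spiral, auxiliary, malonyl-CoA, ketone body and peroxisomal genes. All 54 were found by symbol, and 45 were not members. The shuttle list holds Cpt1a, Cpt1b and Cpt2, the spiral list the other 6 members, and the remaining lists none. In Ad I, 15.2% of all genes with at least 10 UMIs were at least 2-fold higher in the thymic library and 17.0% lower, with a median of 0.08. There, 1 of the 5 shuttle genes with at least 10 UMIs was at least 2-fold higher in the thymic library and 1 lower, both of them members (Cpt1b and Cpt2). The carnitine carrier Slc25a20 (0.98, interval −1.23 to 2.63) and the plasma membrane transporter Slc22a5 (0.62, interval −2.02 to 2.38) had intervals that included 0. Of 11 spiral genes 5 were higher and 1 lower, with a median of 0.62, but without the members 1 of 6 was higher and 1 lower, with a median of −0.10. The lower end was held by dehydrogenases of short and branched chains, Acads (−0.60, interval −6.55 to 1.66) and Acadsb (−1.07, interval −4.48 to 0.63). Among 5 auxiliary genes, Decr1, which reduces bonds of unsaturated fatty acids, was the 1 at least 2-fold higher (1.63, interval 0.66 to 2.54). Etfa, which passes electrons from the dehydrogenases, followed at 0.98 (0.26 to 1.62), while the isomerases Eci1 (−0.14) and Eci2 (−0.10) lay near 0. Acaca, which makes malonyl-CoA, the known inhibitor of the outer-membrane transferases, was higher by 0.88 (0.51 to 1.22). Acacb had a ratio of 0.55 (−0.01 to 1.06), whose interval included 0. The ketone body gene Oxct1 had a ratio of −0.42 (−1.89 to 0.65).

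Peroxisomes shorten very long and branched acyl chains before mitochondria take them over. In Ad I, 11 of the 19 peroxisomal genes had at least 10 UMIs, 5 were at least 2-fold higher in the thymic library and 0 lower, beside 15.2% and 17.0% of all genes. Their median was 0.75, against 1.41 for the members and 0.08 for all genes. The tether protein gene Acbd5 was highest (1.91, interval 0.62 to 3.11), then the transporter Abcd3 (1.44, interval 0.48 to 2.32), while Scp2 (−0.82, interval −1.99 to 0.06) and the transporter Abcd2 (−0.81, interval −2.16 to 0.16) were lowest. Over all labels, 18 of 19 passed the minimum, 0 were at least 2-fold higher and 9 lower, beside 8.12% and 20.2% of all genes. Their median was −0.91, against −0.45 for the members and 0.03 for all genes. The minimum is on the sum of both sides, and the epigonadal side was deeper (2157889 against 534972 nuclear-encoded UMIs). A gene can pass through that side alone, so these counts are descriptions. Abcd2 was lowest at −3.74 (−4.96 to −2.88; 9 and 512 UMIs) and Scp2 next at −2.84 (−3.28 to −2.45), while Crot (0.29) and Decr2 (0.14) had intervals that included 0.

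The mitochondrial lists are read over all labels against the same 8.12% higher and 20.2% lower. Here too a gene can pass the minimum through the deeper epigonadal side alone. Of 15 spiral genes 0 were higher and 8 lower by at least 2-fold (median −1.07). Without the members, 0 of 9 were higher and 6 lower (median −1.68). The ends of the list were Acad11 (−2.58, interval −4.36 to −1.45) and Echs1 (−2.49, interval −3.32 to −1.83) at the low end and Acad8 (0.37) and Acad9 (0.08) at the high end. Of 6 auxiliary genes 0 were higher and 4 lower (median −1.11), led by Eci1 (−2.01, interval −2.83 to −1.37) and Etfb (−1.98, interval −2.45 to −1.56). Crat, the carnitine acetyltransferase, had a ratio of −1.71 (−2.70 to −0.95).

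Of the members, 4 had UMIs in all 10 sums of library and label. The level of Acadm on the log2(CPM + 1) scale had a Pearson r of 0.90 with the sum of the other 8, Acadl 0.89, Hadhb 0.79 and Acadvl 0.49. The other 5 had 0 UMIs in at least 1 sum, where their level is set by depth, so no r is given for them. Among 2666 genes with at least 200 UMIs over these sums, genes with a pattern like that of the summed members were Ifi27 (0.94), Ugp2 (0.91), March5 (0.88) and Ginm1 (0.87). The 10 points come from 2 libraries and differ in depth, so these values are a description.

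Chromatin accessibility was read in 317 nuclei of 6-month female thymus with 4397902 fragments: 146 labelled thyAD I, 140 thyAD II and 31 Immune. For each gene, fragments were counted that overlapped its body or the 2 kb flanking it at both ends, and they were scaled to FPM, fragments per 1000000 fragments of the label. Per kb of window over all labels, Acadm was the most accessible member, at 3.25 FPM per kb and the 92.4 percentile of 49939 genes, and Cpt1b the least, at 1.15 and the 77.1 percentile. The other 7 lay between 1.70 (Hadhb) and 2.55 (Cpt2). All 9 thus lay in the upper part of the genes by this measure. The 49939 include genes of any type, coding or not, and 27859 had at least 10 fragments over thyAD I and thyAD II together. A rank in the upper part is therefore a weak statement.

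The summed members had 655 FPM (1078 fragments) in thyAD I, 542 (1187) in thyAD II and 481 (270) in Immune nuclei. The log2 ratio of thyAD II over thyAD I was −0.27 (−0.39 to −0.15). All 9 members had at least 10 fragments; 0 were at least 2-fold higher and 1 lower, where 4.46% of 27859 genes were higher and 2.99% lower. The ratio was below 0 for 8 of 9 members and for 13315 of 27859 genes, with a median of −0.24 beside 0.02 over all genes. Cpt1b differed most, with 24.9 FPM (17.9 to 33.8; 41 fragments) in thyAD I, 8.68 (5.22 to 13.6; 19 fragments) in thyAD II and 14.3 (6.15 to 28.1) in Immune nuclei, a log2 ratio of −1.50 (−2.39 to −0.70). Hadha (95.9 and 58.9; −0.70; −1.05 to −0.36) and Hadhb (70.4 and 48.9; −0.53; −0.92 to −0.14) were lower in thyAD II as well. The other 6 intervals included 0, from Acadm at −0.31 (−0.62 to 0.00) to Cpt1a at 0.08 (−0.18 to 0.34). No share of all genes with an interval below 0 was computed. These labels were made by the authors from the same nuclei, so the ratios describe the annotation. Windows of Hadha and Hadhb overlap, that of Hadha also reaches into Garem2, and those of Cpt1b and Acadvl reach into Chkb and into Dvl2 and Dlg4.

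**Figure D4:**
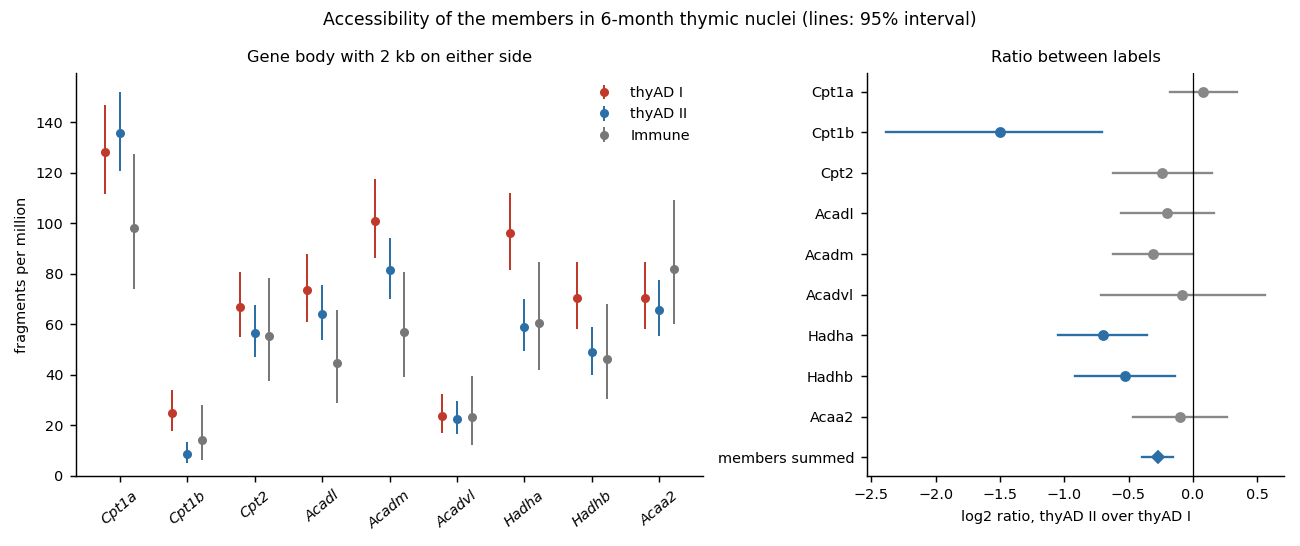
Left, FPM over gene bodies and their 2 kb flanks in 6-month thymic nuclei labelled thyAD I (red), thyAD II (blue) and Immune (grey). Right, the log2 ratio of thyAD II over thyAD I for each gene and for the 9 summed (diamond), with blue where the interval lies below 0; lines are 95% intervals of counting error. Cpt1b, Hadha and Hadhb lie below 0, at −1.50, −0.70 and −0.53.

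Regulators named beside the members in RNA had lower values in thyAD II, and no share of all genes with an interval below 0 was computed. Ppara (−0.71, interval −1.02 to −0.41), Ppargc1b (−0.66, interval −0.86 to −0.45), Esrrg (−0.78, interval −0.999 to −0.55) and Ppargc1a (−0.36, interval −0.54 to −0.19) all had intervals below 0. So did Acacb (−0.51, interval −0.71 to −0.32) and Mlycd (−0.47, interval −0.81 to −0.13), which make and break malonyl-CoA, while that of Acaca (−0.13, interval −0.27 to 0.01) included 0. Other genes named above lay on the opposite side, with Abcd2 at 0.38 (0.10 to 0.68) and Oxct1 at 0.32 (−0.08 to 0.73). The 19 peroxisomal genes had a median of −0.08 and none was 2-fold apart, from Decr2 at −0.91 (−1.63 to −0.22) to Acox3 at 0.48 (0.12 to 0.85).

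The joint clusters of RNA and chromatin split thyAD I into cluster 1 (85 nuclei) and cluster 3 (61 nuclei). The summed members were lower in cluster 3, with a log2 ratio over cluster 1 of −0.24 (−0.43 to −0.04). The median over the members was −0.335 beside 0.03 over all genes. Of the 9 members 0 were at least 2-fold higher and 0 lower, where 3.77% of 22468 genes were higher and 6.24% lower. Hadha had 63.2 FPM in cluster 3 and 111 in cluster 1 (−0.80, interval −1.42 to −0.25), and Hadhb had 42.1 and 83.6 (−0.97, interval −1.73 to −0.31). The intervals of the other 7 included 0, Acadm at 0.44 (−0.04 to 0.90) and Cpt1b at −0.67 (−1.98 to 0.38) among them. The windows of Hadha and Hadhb overlap, so their ratios are not independent. Median depth differed as well, at 8414 fragments in cluster 3 and 12369 in cluster 1, and its part was not tested. Of the regulators, Ppargc1a (−0.31, interval −0.60 to −0.03), Ppargc1b (−0.54, interval −0.87 to −0.22) and Esrrg (−0.60, interval −0.97 to −0.26) were lower in cluster 3 than in cluster 1. The interval of Ppara (−0.285, interval −0.77 to 0.16) included 0. The lower regulator values of thyAD II were thus not shared evenly by the clusters of thyAD I. In thyAD II, cluster 4 over cluster 0 gave −0.05 (−0.22 to 0.12) for the sum, and the intervals of all 9 members included 0. There Hadha had 69.1 FPM in cluster 4 and 52.2 in cluster 0, and Hadhb 48.4 and 49.2. These levels had intervals that overlap those of thyAD I cluster 3. Cpt1b had 28.5 (19.5 to 40.2) and 17.2 FPM (7.88 to 32.7) in thyAD I clusters 1 and 3. In thyAD II clusters 0 and 4 it had 9.08 (4.69 to 15.9) and 8.06 FPM (3.24 to 16.6). The interval of cluster 1 lay above both of these, and that of cluster 3 overlapped them.

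Fragments near gene starts were counted within 500 bases of the 7 RefSeq starts. In thyAD I, Acadm had 75.3 FPM (124 fragments), more than 99.6% of all starts, then Acadl 38.9, Cpt2 34.6, Hadha 27.3, Hadhb 24.9, Cpt1a 18.8 and Acadvl 12.8, against a median of 1.21 over all starts. From Acadl to Acadvl in that order, these lay above 93.6%, 91.5%, 86.9%, 84.9%, 79.3% and 72.7% of starts. A value far above the median is therefore a weak statement. At the shared start of Hadha and Hadhb printed above, thyAD II as a whole lay below thyAD I as a whole. Hadha had 36 and 45 fragments (−0.73, interval −1.41 to −0.07) and Hadhb 35 and 41 (−0.64, interval −1.33 to 0.05, which includes 0). Their windows overlap, so many fragments count for both. By joint cluster, Hadha had 32.0 and 17.2 FPM in thyAD I clusters 1 and 3, and 12.9 and 21.9 in thyAD II clusters 0 and 4. Hadhb had 28.5, 17.2, 13.6 and 19.6 FPM in that order. Cluster 3, with 9 fragments for each gene, thus did not lie above both thyAD II clusters. Immune nuclei had 33.8 and 30.3 FPM there (19 and 17 fragments). The intervals of the remaining 5 included 0, from Acadl at −0.46 (−0.98 to 0.07) to Cpt1a at 0.48 (−0.16 to 1.17), and the median over all starts was −0.02. The start of Acadm had 59.4 FPM in thyAD II and 33.8 in Immune nuclei.

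**Figure D5:**
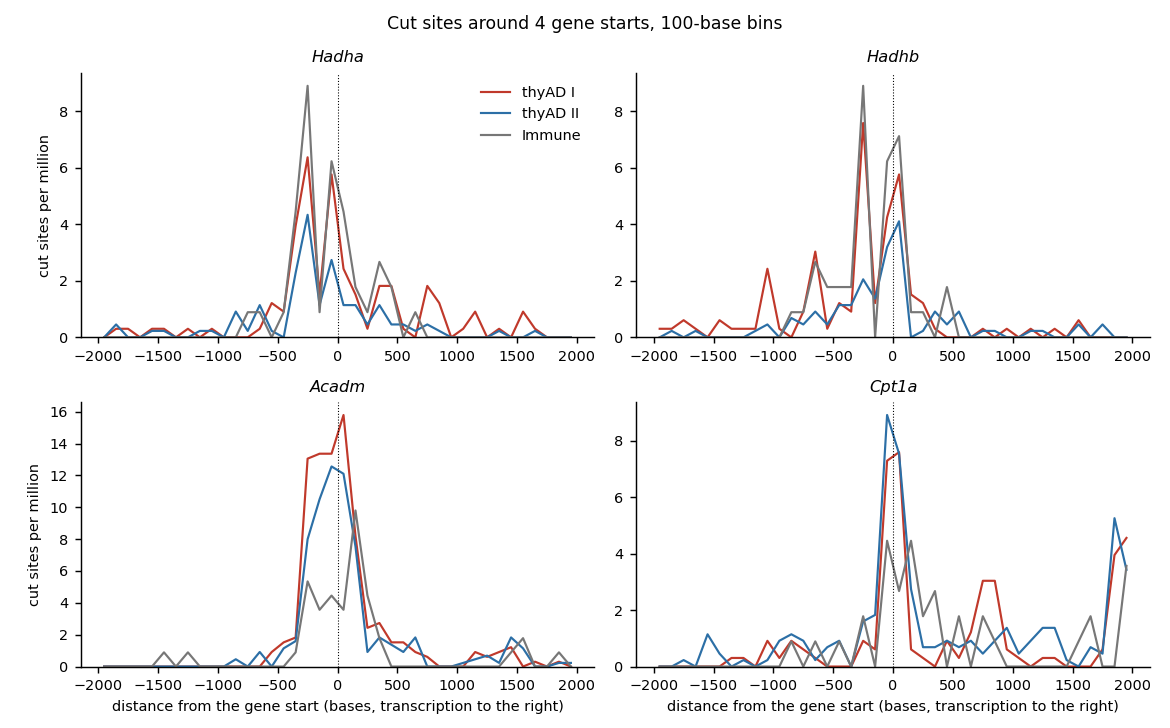
Transposase cut sites per 1000000 of the label, in bins of 100 bases, from 2000 bases before to 2000 bases after the starts of Hadha, Hadhb, Acadm and Cpt1a (distance in the direction of transcription; axes differ between panels), for thyAD I (red), thyAD II (blue) and Immune (grey) nuclei. The highest bins lie within 500 bases of each start, with smaller rises farther out, and the peaks upstream of Hadha and Hadhb come from the same stretch.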

How the data were processed

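The 2 RNA matrices that the authors deposited give UMI counts, not normalized, from cellranger 7.2.0 (per the file headers). The authors also deposited a label and the percent of mitochondrial UMIs for each labelled nucleus. The fragment file came from cellranger-arc 2.0.2 and mouse GRCm38, per the file headers, and the submitters' processing notes name Cell Ranger ARC 2.0.2 and Seurat 5.1.0. Whether introns were counted is not stated in the labels or headers. The authors' doublet classes were kept, and no barcode, labelled or not, was removed here as a doublet. The copy of the 6-month table used here stops inside row 318, so 317 rows were used.

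UMIs were summed per library and label in Python 3.11.15 (numpy 2.4.6, scipy 1.17.1, pandas 2.3.3). Log2 ratios used 0.5 counts added to each side, with intervals from an exact binomial test of 1 side's share. Sums had exact Poisson and shares Clopper-Pearson intervals, all at 95%. A count of 0 was given a limit of 3 counts. Counts of members and medians used features with at least 10 counts over both sides. Where members with at least 10 counts on each side are given, no share of all genes was computed at that minimum. TMM factors came from edgeR 4.0.16 (R 4.3.3). The ratio calculation was tested on simulated counts deeper than those of Ad I. That test does not cover ratios or intervals at counts as low as those of the members there. Besides the members, the 2 highest and 2 lowest genes of each list, the 5 genes most like the sum, and Ppara, Ppargc1a, Ppargc1b and Esrrg could be named, and some of these are not reported here. Ucp1 and Chkb were added after their values were seen. Members, lists and alternatives were chosen with earlier results of these data known. The label mix and the Ucp1 split were chosen after seeing the data. Promoter sequences are RefSeq's on GRCm38.p6.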

Additional observations from a re-analysis of the deposited data

How the results depend on the processing

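No paired analysis was possible because each group was 1 library. The summed log2 ratio kept its sign under every alternative run. It ranged from −0.87 to −0.36 over all labels, where 9 of 10 alternatives stayed within the counting interval, from 0.83 to 1.91 in Ad I (10 of 11), from −1.03 to −0.54 in Ad IIa (8 of 9) and from −0.37 to −0.22 for chromatin (7 of 7). The values outside the interval were −0.36 over all labels with each nucleus weighted equally, 0.83 in Ad I with nuclei of at least 1000 UMIs, and −1.03 in Ad IIa after thinning to 500 UMIs. Hadha in Ad I went from 1.41 to −1.69 with nuclei of at least 1000 UMIs, where it had 0 thymic UMIs. That value comes from the 0.5 counts added to each side, and the thymic limit of 154 CPM lies above the epigonadal 79.6 CPM, so it shows no direction. Cpt1b in Ad I has no value there, with 0 UMIs in both libraries. For the values outside the interval the cause was not tested. Intervals of genes with few UMIs, such as Cpt2, Acadvl and Acaa2 in Ad I, were wide, so staying within one is a weak check. Of 260 alternatives for single genes, 253 stayed within the interval and 7 left it. Besides Hadha in Ad I, whose interval had excluded 0, these were Cpt1b over all labels (4.57 with each nucleus equal, 0.30 with nuclei of at least 1000 UMIs), Cpt1a over all labels (0.54 thinned), Hadha over all labels (0.26 with each nucleus equal) and in Ad IIa (−1.07 thinned), and Cpt1a chromatin (0.48 with 1 kb around gene ends). The values of Cpt1a and Hadha over all labels changed sign as well, from main values whose intervals included 0. With a minimum of 50 counts the members' medians were −0.58, 1.60, −0.69 and −0.24, and the 1.60 of Ad I rests on 2 members. The label mix gave −0.59. In Ad I 95 thymic UMIs carry the sum, in Ad IIb 14 and in Ad IIc 31.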
